A study of Homo sapiens with 10 samples.

Results

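Homologous recombination and Fanconi repair genes are a set of 33 genes for the repair of broken and crosslinked DNA and for the checkpoint that answers to such damage. They were found on the array by the gene names in the scanner files, and 1 probe stood for each gene, the one with the highest mean signal. All 33 were found among the 27759 named genes of the array, and all 33 were measured well above background on 10 of 10 arrays and tested, among 19482 genes tested in all.

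The mRNA of PC-3, a line grown from a human prostate cancer, was measured on 10 single-color Agilent arrays with 2 arrays in each of 5 groups. One group was sampled before any addition (0 h). The other groups were exposed for 24 h to the vehicle DMSO, to luteolin (60 µM), to gefitinib (60 µM) or to both drugs at these concentrations, and every drug was dissolved in DMSO. Luteolin is a plant flavone, and gefitinib is an inhibitor of the EGF receptor kinase. The labels name no genetic change in any group. The labels call the 2 arrays of a group biological replicates but do not say whether they came from separate cultures, so the p-values measure the spread between these arrays, which may be technical.

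For the 6 drug-labelled arrays, the scanner file names carry another treatment than the sample labels. The luteolin-labelled files are named for gefitinib, the gefitinib-labelled files for both drugs, and the files labelled with both drugs for luteolin. Which of them is right cannot be told from these data, so each group is called by its label throughout, and every statement on a drug below is a statement on the arrays with that label. The arrays lay on 3 slides, with 63.4% to 70.4% of probes well above background and no saturated probe on any of them. Replicate 1 of DMSO and every drug label lay on slide 1. Replicate 2 of these groups lay on slide 2, except for gefitinib on slide 3, which held no DMSO array. The 75th percentile signal was 1402 and 1177 at 0 h, 1350 and 1283 with DMSO and 1173 and 1041 under luteolin. It was 650.7 and 628.4 under gefitinib and 864.6 and 539.8 under both drugs. Scaling each array to this value removed these differences, which ran partly with the label. The defining epithelial markers KRT8, KRT18, KRT19, TACSTD1 and CDH1 were well above background on 10 of 10 arrays, while the leukocyte marker PTPRC and the stromal marker DCN were so on 0 of 10. KLK3, an androgen-response marker, was well above background on 10 of 10. The leukocyte markers CD3E and CD14 were too, at log2 levels of -5.03 to -2.74, where 0 is each array's 75th percentile. Of the other stromal markers, PECAM1 was so on 10 of 10 arrays, COL1A1 and COL3A1 on 9 and VWF on 1, with COL1A1 at -5.45 to -2.10, COL3A1 at -4.93 to -2.73 and PECAM1 at -4.48 to -2.01.

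In homologous recombination, a broken end is cut back to a single strand, BRCA1 and BRCA2 help to prepare that strand for pairing, and an intact copy of the sequence then serves as the template. The Fanconi core complex tags the FANCD2-FANCI pair at crosslinks between the strands and so hands the lesion to the same machinery. Many of these genes are transcribed mainly in cells that are about to replicate their DNA, through E2F factors, and prostate cancers with defects in them are known for their sensitivity to PARP inhibitors.

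Promoter sequences show where such regulatory letters stand, so the promoters of the genes, 250 bases before to 50 after each start site, were read from RefSeq (GRCh38.p14). Of the 33 genes, 29 matched an entry, with 43 promoters, and NBN, RAD54B, WRN and XRCC5 had none. Both strands were searched for the E2F-type letters TTTCCCGC, TTTGGCGC, TTTCGCGC and TTTGCCGC, for CCAAT and for the cell cycle homology region letters TTTGAA and TTCGAA. Matches of different motifs were counted separately also where they overlapped. E2F-type letters stood in 8 of 29 genes (27.6%) against 3.99% of 27305 genes in the table, and in 20.9% of their promoters against 3.31% of all promoters. CCAAT stood in 48.3% of the genes against 39.7% of all, and the cell cycle homology region letters in 13.8% against 19.5%. A match describes letters and no binding. Windows are printed here for 4 genes that were lowered under the luteolin label and have E2F-type letters (EXO1, XRCC2, FANCA and UNG), and for the 2 lowered only under the gefitinib label (MSH6 and TOPBP1). Each is 5′ to 3′ on the strand of its gene, with the matched letters, or their reverse complement, in capitals.
EXO1, chr1:241848197-241848226, plus strand: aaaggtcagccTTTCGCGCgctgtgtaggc
XRCC2, chr7:152676102-152676131, minus strand: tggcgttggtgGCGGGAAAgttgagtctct
FANCA, chr16:89816782-89816849, minus strand: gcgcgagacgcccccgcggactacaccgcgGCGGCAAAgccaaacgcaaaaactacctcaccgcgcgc
UNG, chr12:109098079-109098146, plus strand: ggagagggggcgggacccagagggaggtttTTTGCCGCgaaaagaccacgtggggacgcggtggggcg
MSH6, chr2:47783137-47783166, plus strand: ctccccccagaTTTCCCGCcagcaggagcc
TOPBP1, chr3:133661930-133661959, minus strand: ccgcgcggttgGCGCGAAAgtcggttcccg
Counted from the start site, the letters began at position 5 in EXO1, 22 in XRCC2 and 4 in MSH6, and at -172 in FANCA, -63 in UNG and -7 in TOPBP1. They stood in 4 of 16 genes with a promoter entry that were lowered under the luteolin label and in 4 of the other 13, so their presence did not separate the lowered genes from the rest.

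The first question was how the 33 genes moved over 24 h with each drug label against the vehicle. Under the luteolin label, 17 of 33 genes were lowered and 0 were raised, where 6.14% of all genes tested were lowered and 7.23% raised. Their median log2 change was -1.02, against 0.09 over all genes. Under the gefitinib label 5 genes were lowered and 0 raised, a share of 15.2% beside a background of 14.3% lowered and 15.6% raised, with a median of -0.13 against 0.22. Under the label of both drugs 4 genes were lowered and 0 raised, a share of 12.1% beside 7.72% lowered and 12% raised, with a median of -0.28 against 0.16. Raised and lowered stand for at least a 2-fold change with an adjusted p under 0.05 (limma, Benjamini-Hochberg over 28774 probes). The share under the gefitinib label was near the background and is no result about these genes as a set. The gefitinib count was 2 without gefitinib replicate 1, and the count for both drugs was 2 without DMSO replicate 1 or without replicate 2 of both drugs and 7 with quantile normalization or array median scaling. By the treatments of the file names, the 17 genes would belong to gefitinib, the 5 to both drugs and the 4 to luteolin. Scaling moved the split of all calls. Of all genes called, 52.2% were raised under gefitinib, and 40% with quantile normalization, 37.4% with the percentile over probes well above background on all arrays and 65.8% with another background correction. Under both drugs 60.9% were raised, and 44.6% with quantile normalization, 47.6% with array median scaling and 70.9% with the other background correction. The median change of all genes under gefitinib went from 0.22 to 0.04 with quantile normalization and to 0.37 with the other background correction, and the median of the 33 genes went from -0.13 to -0.18 and -0.01.

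**Figure D1:**
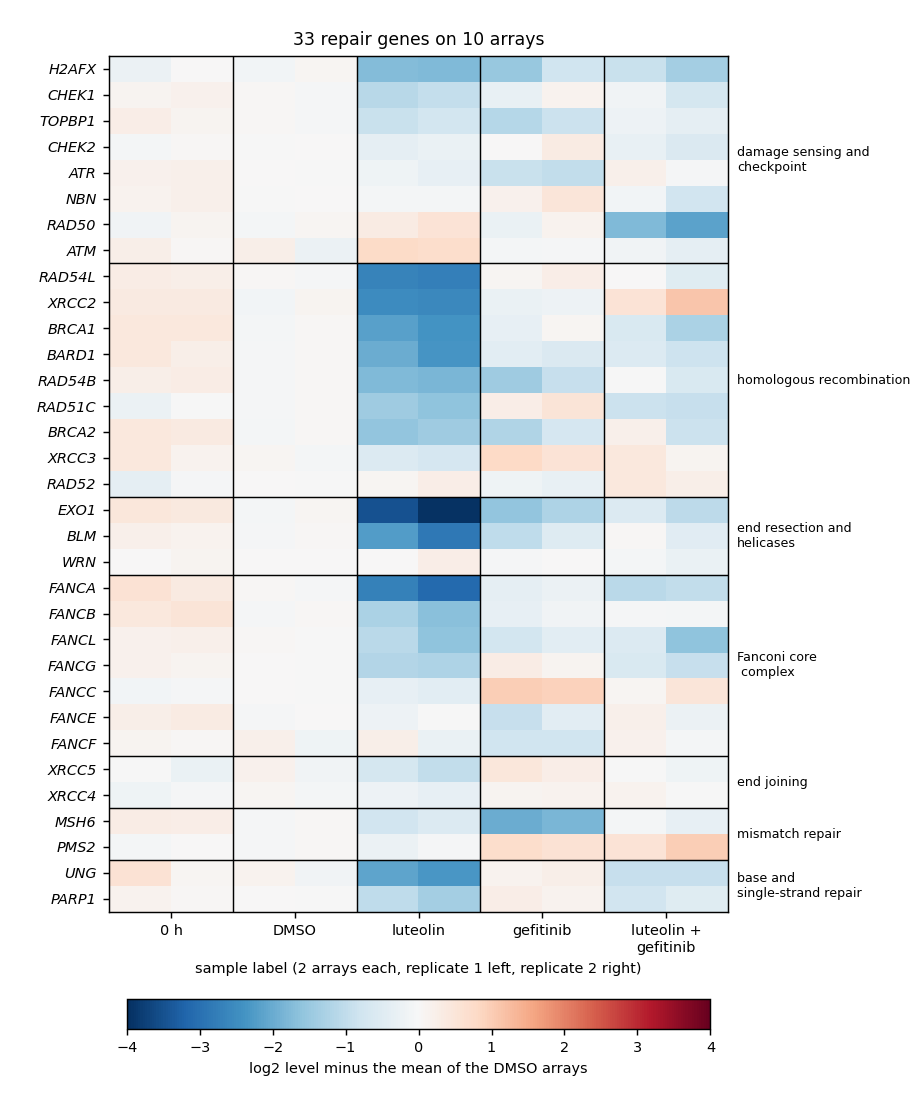
Log2 level of each of the 33 genes on each of 10 arrays minus the mean of the DMSO arrays (color scale from -4 to 4), with genes in rows by role and 2 arrays for each of 5 sample labels in columns. The deepest blue lies in the luteolin-labelled columns, with EXO1 lowest. The mean changes from 0 h to DMSO stay between -0.48 and 0.20, and the 0 h columns show them with the opposite sign. Lowest against DMSO are MSH6 under gefitinib (-1.91) and RAD50 under both drugs (-1.96). Smaller falls stand beside them, such as EXO1 under gefitinib (-1.4) and H2AFX under both (-1.12).

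Vehicle and time alone moved these genes little. Between 0 h and DMSO, 0 of 33 genes were called by limma, beside a background of 0.0103% lowered and 0.0257% raised, and 2 genes (6.06%) passed an unadjusted p under 0.05, both lower with DMSO, where 6.17% of all genes did. These were FANCA, with a log2 change of -0.48, and FANCB, with -0.47. Changes ranged from -0.48 to 0.20, with a median of -0.18 against -0.02 over all genes.

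Of the recombination genes, 7 of 9 were lowered under the luteolin label. RAD54L, a motor protein that helps the broken strand to invade the intact copy, had log2 levels of 1.93 and 1.86 at 0 h and 1.68 and 1.59 with DMSO, -1.05 and -1.11 under luteolin, 1.70 and 1.90 under gefitinib and 1.64 and 1.13 under both. For these levels, as for all below, 0 is the array's 75th percentile. The luteolin-labelled arrays lay more than 2 log2 units below every other array, and the other groups lay close together. The log2 change against DMSO was -2.71 (SE 0.19, limma adjusted p = 0.000275), a 6.55-fold lower level.

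XRCC2, which acts with RAD51C in recombination, stood at -0.75 and -0.75 at 0 h, -1.24 and -1 with DMSO, -3.65 and -3.71 under luteolin, -1.39 and -1.31 under gefitinib and -0.56 and 0.00 under both. It was lowest under luteolin and highest under both drugs, with no overlap of either with another group. The change under luteolin was -2.56 (SE 0.20, limma adjusted p = 0.000397). Under both drugs it was 0.84 (SE 0.20, limma adjusted p = 0.0138), below the 2-fold minimum. A second probe gave -2.55 and 0.77. The brighter probe lies at chr7:151973996-151974055 (hg18).

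BRCA1 and its partner BARD1, which together form a ubiquitin ligase at breaks, were both lowered under luteolin. The levels of BRCA1 were -0.17 and -0.19 at 0 h, -0.67 and -0.54 with DMSO, -2.76 and -2.98 under luteolin, -0.94 and -0.53 under gefitinib and -1.22 and -1.87 under both. BARD1 had 0.72 and 0.51 at 0 h, 0.24 and 0.33 with DMSO, -1.70 and -2.07 under luteolin, -0.12 and -0.30 under gefitinib and -0.27 and -0.55 under both. In both genes the luteolin-labelled arrays were the lowest and did not overlap the rest. Their log2 changes under luteolin were -2.27 (SE 0.24, limma adjusted p = 0.000897) for BRCA1 and -2.17 (SE 0.19, limma adjusted p = 0.000537) for BARD1. Under both drugs they were -0.94 (adjusted p = 0.0167) and -0.69 (adjusted p = 0.0223), short of 2-fold, and BRCA1 passed 2-fold with quantile normalization (-1.01) and with array median scaling (-1.07).

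BRCA2, which acts on the single-stranded DNA of resected ends, gave -2.64 and -2.70 at 0 h, -3.13 and -3 with DMSO, -4.64 and -4.48 under luteolin, -4.27 and -3.74 under gefitinib and -2.86 and -3.93 under both. The last group spread over more than 1 log2 unit, and only the luteolin-labelled arrays lay below all others. Its change under luteolin was -1.5 (SE 0.33, limma adjusted p = 0.0125). This call rested on all 4 arrays compared, since the adjusted p was 0.0608 without DMSO replicate 1, 0.0762 without DMSO replicate 2, 0.0586 without luteolin replicate 1 and 0.0621 without luteolin replicate 2. The change was also smaller with another background correction (-0.73). Under gefitinib BRCA2 changed by -0.94 (limma adjusted p = 0.038, short of 2-fold). That value was -1.11 with the percentile over probes well above background on all arrays, and ranged from -1.21 to -0.09 over the alternatives by label.

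RAD51C, which acts in strand pairing with XRCC2 and XRCC3, had levels of 2.24 and 2.44 at 0 h, 2.43 and 2.51 with DMSO, 1.06 and 0.86 under luteolin, 2.73 and 2.97 under gefitinib and 1.60 and 1.56 under both. The gefitinib-labelled arrays were the highest and the luteolin-labelled the lowest, and those of both drugs stood between. Against DMSO it changed by -1.51 under luteolin (SE 0.17, limma adjusted p = 0.00097) and by -0.89 under both (adjusted p = 0.00541, short of 2-fold). The value under both was -1.01 with quantile normalization and with array median scaling, and ranged from -1.01 to -0.85 over the alternatives by label.

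RAD54B, a relative of RAD54L, was measured at 1.35 and 1.42 at 0 h, 1.09 and 1.18 with DMSO, -0.65 and -0.71 under luteolin, -0.30 and 0.20 under gefitinib and 1.12 and 0.53 under both. Both single-drug labels lay below every other array. The change was -1.82 under luteolin (SE 0.24, limma adjusted p = 0.00162) and -1.18 under gefitinib (SE 0.24, limma adjusted p = 0.00437). A dimmer second probe repeated the first (-2.44) but not the second (-0.08), and the gefitinib value was -0.93 without gefitinib replicate 1 and -0.63 with the median over its probes. The remaining recombination genes were not called. XRCC3, the partner of RAD51C, changed by -0.60 under luteolin (adjusted p = 0.0457, short of 2-fold), and RAD52, which anneals single strands, by 0.18 (adjusted p = 0.479).

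**Figure D2:**
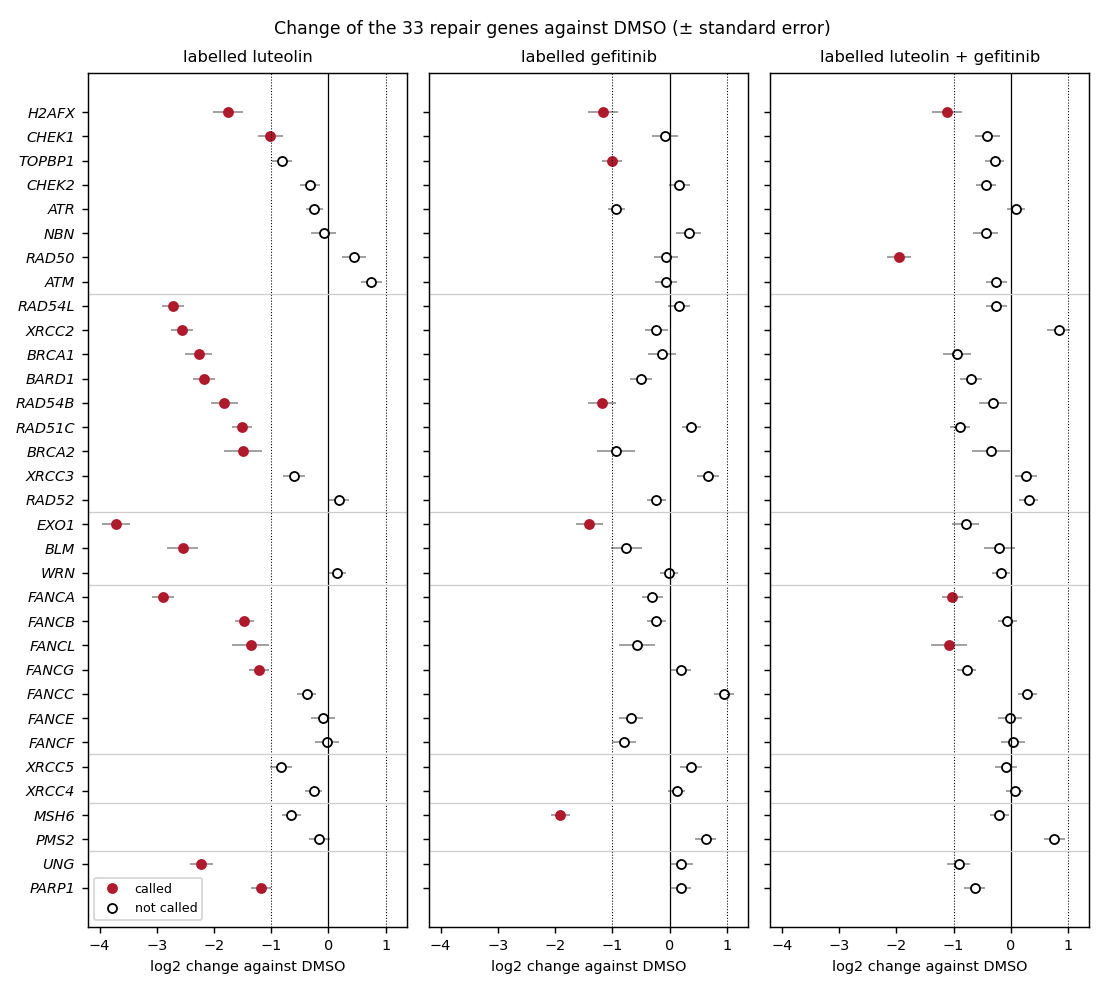
Log2 change of each of the 33 genes against DMSO with its standard error (bars), for the luteolin, gefitinib and combined labels, with 2 arrays a group; filled points are called, open points are not, and dotted lines mark 2-fold. Filled points number 17, 5 and 4 from left to right, all of them on the lower side.

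End resection and the helicases held the gene with the largest fall of the set. EXO1, a nuclease that cuts broken ends back and also serves mismatch repair, had levels of 1.20 and 1.16 at 0 h, 0.68 and 0.83 with DMSO, -2.71 and -3.19 under luteolin, -0.83 and -0.47 under gefitinib and 0.22 and -0.28 under both. The 5 labels kept apart, in the order 0 h, DMSO, both drugs, gefitinib and luteolin from high to low. The change was -3.71 under luteolin (SE 0.24, limma adjusted p = 0.000203), a 13.1-fold lower level, -1.40 under gefitinib (adjusted p = 0.00234) and -0.79 under both (adjusted p = 0.0299, short of 2-fold). Its probe lies at chr1:240115340-240115399 (hg18).

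BLM, the helicase lost in Bloom syndrome, stood at 0.19 and 0.14 at 0 h, -0.04 and 0.04 with DMSO, -2.24 and -2.87 under luteolin, -1.01 and -0.52 under gefitinib and 0.06 and -0.46 under both. Here again the luteolin label was lowest without overlap, whereas both drugs together overlapped DMSO. Its change was -2.55 under luteolin (SE 0.27, limma adjusted p = 0.000877) and -0.76 under gefitinib (adjusted p = 0.0413, short of 2-fold). WRN, the helicase of Werner syndrome, changed by -0.17 to 0.15 under the 3 drug labels and was not called.

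Of the Fanconi core complex, 4 of 7 genes were lowered under the luteolin label. FANCA, the subunit most often mutated in Fanconi anemia, had levels of -0.24 and -0.48 at 0 h, -0.79 and -0.88 with DMSO, -3.52 and -3.93 under luteolin, -1.19 and -1.08 under gefitinib and -1.92 and -1.80 under both. The luteolin arrays were lowest, those of both drugs next, and neither group met another. FANCA changed by -2.89 under luteolin (SE 0.19, limma adjusted p = 0.000203) and by -1.02 under both (SE 0.19, limma adjusted p = 0.00496). The second call sat on the 2-fold limit, with -0.98 without DMSO replicate 1, -0.96 without replicate 1 of both drugs and -0.78 with another background correction. The FANCA probe lies at chr16:88331514-88331573 (hg18).

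FANCL, the ubiquitin ligase of the complex, gave 1.81 and 1.83 at 0 h, 1.68 and 1.61 with DMSO, 0.55 and 0.03 under luteolin, 0.92 and 1.23 under gefitinib and 1.08 and 0.04 under both. All drug-labelled arrays lay below DMSO, but they overlapped each other. Its changes were -1.36 under luteolin (SE 0.32, limma adjusted p = 0.0181) and -1.08 under both (SE 0.32, limma adjusted p = 0.0296). The luteolin call was lost without DMSO replicate 1 (adjusted p = 0.095), DMSO replicate 2 (0.0826) or luteolin replicate 2 (0.128). Without the same DMSO arrays or replicate 2 of both drugs, the call under both was lost too (0.117, 0.104 and 0.13), as it was with no filter on dim probes (0.0559) and with only the groups compared in the fit (0.0695).

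FANCB, which pairs with FANCL, was at -1.19 and -1.07 at 0 h, -1.64 and -1.56 with DMSO, -2.88 and -3.26 under luteolin, -1.92 and -1.75 under gefitinib and -1.64 and -1.69 under both. FANCG, which binds FANCA, was at 1.57 and 1.5, 1.43 and 1.37, 0.23 and 0.15, 1.70 and 1.5, and 0.79 and 0.47 in the same order. In each gene the luteolin arrays were the lowest, and FANCG was intermediate under both drugs. Under luteolin the changes were -1.47 (SE 0.17, limma adjusted p = 0.00122) for FANCB and -1.21 (SE 0.17, limma adjusted p = 0.00204) for FANCG. Under both drugs FANCG changed by -0.77 (adjusted p = 0.00945, short of 2-fold).

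FANCE and FANCF, adaptor subunits, were not called. Under gefitinib they changed by -0.67 (adjusted p = 0.0278) and -0.80 (adjusted p = 0.014), both short of 2-fold. FANCC, which binds both, changed by 0.95 under gefitinib (adjusted p = 0.00317, short of 2-fold), but its brightest probe, at chr9:96925682-96925741 (hg18), runs against the strand of the gene. The FANCC probe for the RefSeq mRNA changed by 0.34 under luteolin, 0.08 under gefitinib and -0.07 under both, with adjusted p of 0.282, 0.762 and 0.794. Of 39 probes with coordinates for the genes with a promoter entry, 3 ran against their gene. FANCC was the 1 gene among these whose brightest probe did so. The probes of NBN, RAD54B, WRN and XRCC5, which had no entry, were not checked for strand.

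Damage sensing and checkpoint genes had 2 of 8 members lowered under each drug label. H2AFX, the histone variant that is phosphorylated around breaks, was the 1 gene of the 33 lowered under all 3 labels, a pattern of 0.806% of all genes. Its levels were 3.77 and 4 at 0 h, 3.89 and 4.08 with DMSO, 2.27 and 2.21 under luteolin, 2.47 and 3.20 under gefitinib and 3.09 and 2.64 under both. All drug-labelled arrays lay below the 0 h and DMSO arrays, with the luteolin label lowest. Its changes were -1.75 (SE 0.26, limma adjusted p = 0.00275), -1.16 (SE 0.26, limma adjusted p = 0.00716) and -1.12 (SE 0.26, limma adjusted p = 0.0121). Without gefitinib replicate 1 the gefitinib value was -0.79, and under both drugs the adjusted p was 0.0771 without DMSO replicate 2 and 0.0674 without replicate 2 of both drugs. The H2AFX probe lies at chr11:118469801-118469860 (hg18).

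RAD50, the ATPase of the complex that first binds broken ends, was lowered under the label of both drugs and under neither single-drug label. It had levels of -1.82 and -1.58 at 0 h, -1.76 and -1.61 with DMSO, -1.37 and -1.13 under luteolin, -1.95 and -1.56 under gefitinib and -3.45 and -3.84 under both. The arrays of both drugs lay below all others by more than 1 log2 unit. The change was -1.96 (SE 0.21, limma adjusted p = 0.001), a 3.88-fold lower level, with 0.44 under luteolin (adjusted p = 0.167) and -0.06 under gefitinib (adjusted p = 0.812). A second, dimmer RAD50 probe gave -2 under both (adjusted p = 0.00212). The brighter one spans chr5:132004378-132005809 (hg18).

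NBN, a partner of RAD50 in that complex, was not called by its brightest probe, with -0.44 under both (adjusted p = 0.145), but its second probe changed by -1.47 there (adjusted p = 0.00154). ATM, the kinase that the complex activates, changed by 0.75 under luteolin (adjusted p = 0.023, short of 2-fold), and its second probe by 0.62. Another and dim ATM probe, with a mean signal of 11.2, changed by 3.84 under both drugs, where the brightest changed by -0.25, so the probes of ATM disagreed.

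TOPBP1, which switches on the kinase ATR at stalled forks, had levels of -0.67 and -0.82 at 0 h, -0.89 and -0.98 with DMSO, -1.83 and -1.66 under luteolin, -2.09 and -1.79 under gefitinib and -1.15 and -1.29 under both. The single-drug labels were lowest and overlapped each other. It was lowered under gefitinib, by 1.01 on the log2 scale (SE 0.17, limma adjusted p = 0.00235), and its change of -0.81 under luteolin (adjusted p = 0.0105) was short of 2-fold. The gefitinib call lay at the 2-fold limit, with -0.85 without gefitinib replicate 1, -0.96 without DMSO replicate 1, and -0.70 to -0.99 with another background correction, quantile normalization and array median scaling. ATR itself changed by -0.93 under gefitinib (adjusted p = 0.00228, short of 2-fold), and by -0.25 under luteolin and 0.09 under both.

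CHEK1, the kinase that ATR activates, gave 1.11 and 1.16 at 0 h, 1.04 and 0.94 with DMSO, -0.11 and 0.05 under luteolin, 0.70 and 1.12 under gefitinib and 0.86 and 0.30 under both. The luteolin-labelled arrays alone lay below the rest. Its change of -1.02 under luteolin (SE 0.22, limma adjusted p = 0.0127) was called, but the adjusted p rose to 0.0851 without DMSO replicate 1, 0.0656 without DMSO replicate 2, 0.0633 without luteolin replicate 1 and 0.0583 without luteolin replicate 2. CHEK2, the kinase downstream of ATM, was not called, with -0.32, 0.17 and -0.43 under luteolin, gefitinib and both.

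UNG and PARP1 serve base excision and single-strand break repair, and both were lowered under luteolin. UNG, which removes uracil from DNA, had levels of -1.24 and -1.72 at 0 h, -1.68 and -1.95 with DMSO, -3.93 and -4.15 under luteolin, -1.66 and -1.58 under gefitinib and -2.72 and -2.72 under both. PARP1, the sensor of nicked DNA, was at 3.88 and 3.79, 3.75 and 3.71, 2.72 and 2.37, 3.99 and 3.88, and 2.95 and 3.26 in the same order. Each gene was lowest under luteolin and next under both drugs, with no overlap, and under gefitinib each changed by 0.20 and was not called. The luteolin changes were -2.22 for UNG (SE 0.20, limma adjusted p = 0.000537) and -1.18 for PARP1 (SE 0.18, limma adjusted p = 0.00305). Under both drugs UNG changed by -0.91 (adjusted p = 0.01) and PARP1 by -0.63 (adjusted p = 0.0263), short of 2-fold. UNG passed 2-fold there with quantile normalization (-1.02) and array median scaling (-1.03), and ranged from -1.04 to -0.45 over the alternatives by label.

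MSH6, which recognizes mismatched bases, was the gene most lowered under gefitinib. Its levels were 3.4 and 3.38 at 0 h, 3.04 and 3.15 with DMSO, 2.34 and 2.56 under luteolin, 1.12 and 1.26 under gefitinib and 3.03 and 2.76 under both. The gefitinib-labelled arrays lay more than 1 log2 unit below all others. The change was -1.91 (SE 0.17, limma adjusted p = 0.000158), a 3.76-fold lower level, while under luteolin it was -0.65 (adjusted p = 0.0235, short of 2-fold) and under both -0.20 (adjusted p = 0.35). The probe lies at chr2:47887423-47887482 (hg18). PMS2, a nuclease of mismatch repair, was not called, with 0.63 under gefitinib and 0.76 under both, and its probes can share sequence with its near-identical copies. The end joining genes XRCC4 and XRCC5 were not called under any drug label, with changes of -0.83 to 0.37.

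The counts of lowered genes thus differed by role and label, but the roles are small and were not tested against each other. Under luteolin the lowered genes were 7 of 9 for recombination, 2 of 3 for resection and helicases, 4 of 7 for the Fanconi core, 2 of 8 for sensing and checkpoint, 2 of 2 for base and single-strand repair, and 0 of 2 each for end joining and mismatch repair. In those last roles XRCC5 (-0.83, limma adjusted p = 0.0151) and MSH6 (-0.65, limma adjusted p = 0.0235) were short of 2-fold. XRCC4 and PMS2 changed by -0.26 and -0.16. Across the labels, 20 genes were lowered under at least 1 label (23% of all genes were) and 5 under at least 2 (4.4% of all genes). The 3 comparisons share the DMSO arrays. Beyond H2AFX, the genes lowered under more than 1 label were EXO1 and RAD54B with luteolin and gefitinib, and FANCA and FANCL with luteolin and both drugs. On slide 1, which held DMSO and all drug labels, the difference reached 2-fold in 17 of 17 called genes under luteolin, 5 of 5 under gefitinib and 2 of 4 under both, and on slide 2 in 16 of 17 under luteolin and 3 of 4 under both. These values come from the arrays that made the calls and are no separate check of them.

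Measured against 0 h instead, 18 genes were lowered under luteolin beside 7.81% of all genes, with TOPBP1 added at -1.01, and 0 were raised beside 8.27%. Under gefitinib 7 were lowered beside 14.6%, with ATR and BRCA2 added at -1.11 and -1.34, and FANCC was raised by 1.03 beside 14.5%, through the probe on the opposite strand. Under both drugs 8 were lowered beside 8.37% and 0 raised beside 11.5%, and BARD1, BRCA1, EXO1 and UNG were those added, at -1.02, -1.36, -1.21 and -1.24.

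Other repair genes on the array give a wider view of the same pathways. Of 80 tested, 15 were lowered and 0 raised under luteolin, 16 lowered and 1 raised under gefitinib (TIMELESS, a fork protection gene, by 1.09), and 5 lowered and 0 raised under both. Their shares lowered were 18.8%, 20% and 6.25%, beside 6.14%, 14.3% and 7.72% of all genes, so the share under both was below the background. Of all genes, 7.23%, 15.6% and 12% were raised. Under luteolin the 4 lowered among 10 further Fanconi genes were FANCD2 (-2.07) and FANCI (-2.01), the targets of the core complex, UBE2T (-2.31), its ubiquitin-conjugating enzyme, and BRIP1 (-2.48), a helicase that binds BRCA1, which are named here after their values were seen. Under gefitinib other members of this list were lowered, 3 of 10 with a median of -0.22 over the list, and they were FAAP24 (-2.20), FANCM (-2.15) and ERCC4 (-1.17), also named after their values were seen. FANCD2, FANCI, UBE2T and BRIP1 were at 0.70, 0.46, -0.08 and 0.61 there, none of them called. Under both drugs 0 of 10 were lowered, with a median of -0.33. Nucleotide excision repair genes had 0 of 10 lowered under luteolin, too few genes to tell from a background of 6.14%.

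Of the 80 genes of these lists, 6 were lowered under at least 2 labels, beside 4.4% of all genes. CDC25A, the phosphatase that checkpoint kinases mark for destruction, changed by -2.80 under luteolin and -4.85 under gefitinib. FEN1, which trims flaps in base excision and replication, changed by -1.93 and -1.99. RMI1, a partner of BLM, changed by -1.82 and -1.05, and the resolvase GEN1 (FLJ40869 on the array) by -2.07 and -1. RAD51AP1, an accessory factor of recombination, changed by -2.65 under luteolin and -1.81 under both.

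**Figure D3:**
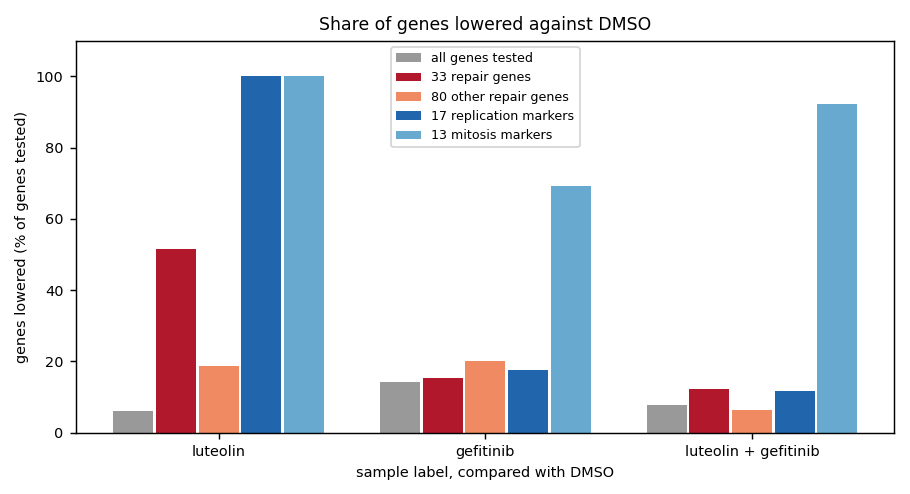
Share of genes lowered against DMSO (percent of genes tested, bars from 0) under each drug label, for all genes tested, the 33 repair genes, 80 other repair genes, 17 replication markers and 13 mitosis markers. Under luteolin the 33 repair genes reach 51.5% and both marker lists 100%, and under gefitinib the repair genes lie at 15.2% beside 14.3% of all genes.

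Markers of dividing cells were lowered alongside under luteolin, while the replication and mitosis lists differed from each other under the other labels. Of 17 replication markers, 17 were lowered under luteolin with a median log2 change of -1.99, 3 were lowered and 2 raised under gefitinib, and 2 were lowered under both. Of 13 mitosis markers, 13 were lowered under luteolin, 9 under gefitinib and 12 under both. No replication or mitosis marker was absent from the array, and CCNE2 and MKI67 were the ones not well above background on all arrays (6 and 9 of 10). Summed over its probes, in units of the 75th percentile of the array, the replication list stood at 191 and 200 at 0 h, 150 and 151 with DMSO, 37.4 and 38.4 under luteolin, 217 and 229 under gefitinib and 123 and 132 under both. The repair genes were summed without FANCC, whose probe runs against the gene. The other 32 gave 85.1 and 86.3, 79.1 and 80.6, 36.7 and 38.6, 62.2 and 68.5, and 52.4 and 61.2 in the same order. With the FANCC probe the sums were 99.0 and 99.8 with DMSO and 101 and 105 under gefitinib. The mitosis list gave 51.6 and 54.1, 73.0 and 82.2, 13 and 21.8, 28.0 and 36.8, and 19.1 and 27.7. In these sums the repair genes and the replication list shared their order of DMSO, both drugs and luteolin from high to low. Under gefitinib the summed replication list lay above DMSO, while the sums of the 32 repair genes and the mitosis list lay below it. Bright genes weigh most in a sum. Median log2 changes under gefitinib were -0.13 for the 33 genes, 0.14 for the replication list and -1.38 for the mitosis list. From DMSO to gefitinib the mean log2 level of H2AFX went from 3.99 to 2.83 and of MSH6 from 3.1 to 1.19. That of PARP1 went from 3.73 to 3.93, of TYMS from 5.21 to 6.36 and of PCNA from 3.23 to 2.01. The part of the cell cycle in the repair genes' fall was not tested, and fewer cells in a phase cannot be told apart from less RNA per cell in such bulk samples.

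**Figure D4:**
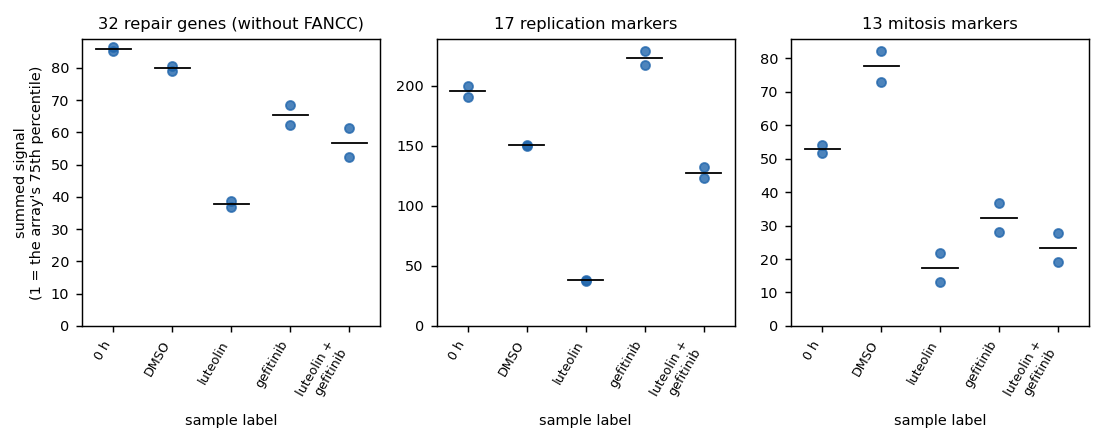
Summed signal of 32 repair genes (without FANCC, whose probe runs against the gene), 17 replication markers and 13 mitosis markers on each array (points, 1 unit is the 75th percentile of the array) with the mean of the 2 arrays of each label (lines). The repair genes stand at 79.1 and 80.6 with DMSO, 36.7 and 38.6 under luteolin and 62.2 and 68.5 under gefitinib. Bright genes weigh most in each sum.

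The study gave the drugs together as well as alone, so the labels were also compared with each other. Against the luteolin label, the arrays of both drugs had 11 genes raised, beside 11.2% of all genes, and 1 lowered (RAD50, -2.39), beside 9.84%. The raised genes were XRCC2 (3.4, a 10.6-fold higher level), EXO1 (2.92), RAD54L (2.46), BLM (2.35), FANCA (1.87), RAD54B (1.51), BARD1 (1.47), FANCB (1.40), BRCA1 (1.32), UNG (1.32) and BRCA2 (1.16). The BRCA2 call was lost without either luteolin array (adjusted p = 0.0951 and 0.0743) and without replicate 1 of both drugs (0.0633, with a change of 0.63), and with quantile normalization (0.0635) or only the groups compared (0.0583). With another background correction BRCA2 and UNG were short of 2-fold, at 0.89 and 0.96. All 11 were among the 17 lowered under luteolin against DMSO, and both counts use the same luteolin-labelled arrays. The other 6 of the 17 (CHEK1, FANCG, FANCL, H2AFX, PARP1 and RAD51C) differed by 0.27 to 0.63 between these labels.

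Between the single drugs, 15 genes were lower under luteolin than under gefitinib, beside 18.4% of all genes, and MSH6 was higher by 1.26, beside 18.2%. XRCC3, XRCC5 and FANCC were among the 15, at -1.27, -1.20 and -1.33 (FANCC by the probe on the opposite strand), though none of them was called against DMSO under either label. Between both drugs and gefitinib, ATR (1.01), MSH6 (1.71) and XRCC2 (1.07) were higher under both, beside 17.2% of all genes, and RAD50 (-1.89), RAD51C (-1.27) and UNG (-1.10) lower, beside 9.76%.

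The change under both drugs was then set against the sum of the changes under each. The departure was positive in 15 genes at an adjusted p under 0.05, beside 17.9% of all genes, and negative in 2, beside 16.4%. It was also positive in 14 of 17 replication markers, 11 of 13 mitosis markers and 26 of 80 other repair genes. Negative departures numbered 0, 0 and 9 in these lists. EXO1 had a sum of -5.11 and an observed change of -0.79, a departure of 4.32 (SE 0.33, limma adjusted p = 0.000209). XRCC2 had a sum of -2.79 and an observed change of 0.84, a departure of 3.63 (SE 0.29, limma adjusted p = 0.000222). For BLM the departure was 3.11 and for RAD54B 2.69, and for MSH6, which fell mainly under gefitinib, it was 2.36. Negative departures were those of RAD50 (-2.33, SE 0.30, limma adjusted p = 0.00103) and ATM (-0.94, SE 0.27, limma adjusted p = 0.0288). ATM lost its call without DMSO replicate 2 (-0.71, adjusted p = 0.12) and without any 1 of 5 other arrays, and also with no filter on dim probes (adjusted p = 0.0596) and with the median over its probes (0.0593). With the treatments of the file names in place of the labels, the arrays lowest for most of these genes would be those given gefitinib, and the arrays with RAD50 lowered would be those given luteolin.

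**Figure D5:**
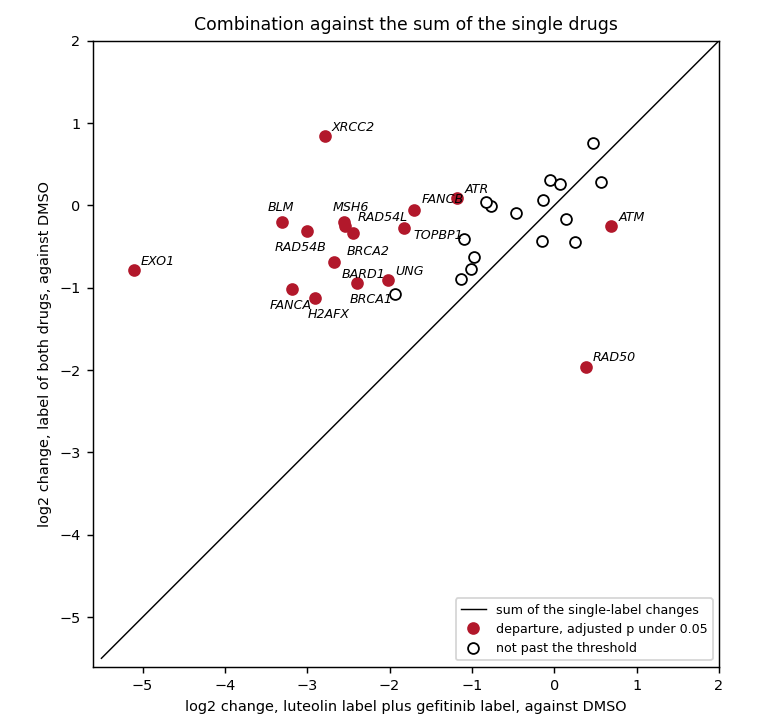
Log2 change against DMSO under both drugs (vertical) plotted against the sum of the changes under each drug label (horizontal) for the 33 genes, with the line of equality. Filled points, named, depart from the line at an adjusted p under 0.05, with 15 above it, EXO1 and XRCC2 farthest, and RAD50 and ATM below it.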

How the data were processed

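The deposited data are 10 single-color arrays of PC-3 cells, 2 per group. The intensities that the authors deposited are, per the file headers (Feature Extraction 10.7.3.1), processed signals on a linear scale, background-subtracted within the array and not normalized between arrays. The series' value table held the same signal in 45015 of 45015 spots per array (relative tolerance 1e-04), and 0 value columns went unused. Groups are those of the sample labels.

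In R 4.3.3 (limma 3.58.1, with files read by data.table, version 1.17.8), control and outlier spots were dropped, spots were averaged per probe on the log2 scale, and each array's 75th percentile was subtracted. A probe was kept where the 2 arrays of some group both had it well above background, which held for 28774 of 41000. Such a probe had at least 50% of its spots so marked. A 5-group limma model (5 residual and 3.36 prior degrees of freedom) gave each contrast, adjusted by Benjamini-Hochberg over all kept probes. The departure from additivity was called at the adjusted p alone. Signal over background, not a count, sets the depth, and the 2 arrays per group limit the precision. The script was tested on simulated arrays.

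Per-array values are given for the members called against DMSO, and of the other repair genes those called the same way under at least 2 labels are named. Of the 6 other repair genes that meet this rule 5 are named, and the remaining one and some markers are not reported here. Genes are named as on the array (H2AFX is now H2AX, TACSTD1 is EPCAM). Of 81 other repair genes listed, ATRIP was not among the array's gene names. The members and lists were chosen with earlier results of these data known. The methods name Subio software and a 1-sample t-test for fold changes and give no normalization or threshold. Alternatives tried were normexp background correction (offset 50), quantile normalization, array median scaling, a percentile over probes well above background on all arrays, no filter and a strict filter on dim probes, the value table, the median over probes, replicate and slide blocks, only the groups compared, the file names' treatments, no minimum fold, the methods' t-test and leaving out each array. The RefSeq mRNA probe on the gene's strand was added after seeing the data.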

Additional observations from a re-analysis of the deposited data

Results flagged for a closer look

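The gefitinib effect differed between arrays with and without luteolin in 17 of the 33 genes, by the interaction term of the limma fit at an adjusted p under 0.05. The values are the log2 effect with luteolin minus that without it, by label. They were 4.32 for EXO1, 3.63 for XRCC2, 3.11 for BLM, 2.69 for RAD54B, 2.36 for MSH6, 2.30 for RAD54L, 2.17 for FANCA, 2.11 for BRCA2, 1.97 for BARD1, 1.78 for H2AFX, 1.64 for FANCB, 1.54 for TOPBP1, 1.46 for BRCA1, 1.27 for ATR, 1.12 for UNG, -0.94 for ATM and -2.33 for RAD50. Beside them, 17.9% of all genes tested had a positive and 16.4% a negative difference. The UNG call was lost with normexp background correction (0.59, adjusted p = 0.134) and when DMSO replicate 1 (0.99, adjusted p = 0.0744) or luteolin replicate 2 (1.01, adjusted p = 0.0623) was left out, and that of BRCA1 when DMSO replicate 2 was (1.39, adjusted p = 0.0506). ATM lost its call without any 1 of 6 arrays (adjusted p = 0.0527 to 0.12), with no filter on dim probes (0.0596) and with the median over its probes (0.0593). Of 17 replication markers, 17 were lowered under luteolin, 3 under gefitinib (with 2 raised) and 2 under both drugs. Of 13 mitosis markers, 13, 9 and 12 were lowered in the same order. Positive differences were called in 14 replication and 11 mitosis markers, and negative ones in 0 of either list. The part of these markers was not tested.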

How the results depend on the processing

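Of 4554 recomputed member values, 4286 kept their direction and side of the threshold, 113 that were not called changed sign and stayed uncalled, 75 lost the call, 57 gained one and 23 reversed, and the cause was not tested except where it is the setting's own construction. Lowered genes under luteolin against DMSO numbered 14 to 17 without any 1 array, 21 with no minimum fold and 4 by the file names.

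Leaving out 1 array, where the lone array left in a group is assumed to vary like the other groups, gave 2 to 7 lowered under gefitinib (2 without gefitinib replicate 1, 7 without gefitinib replicate 2) and 2 to 5 under both (0 to 1 raised) against DMSO, 4 to 10 lowered and 0 to 1 raised under both and 0 to 1 raised under gefitinib against 0 h, 1 to 2 higher under luteolin than gefitinib, 3 to 7 lower under both than gefitinib, 1 to 2 lower under both than luteolin, and 1 to 3 negative departures.

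Array median scaling and quantile normalization each gave 7 lowered under both against DMSO, 2 lower under both than luteolin and 1 higher under both than gefitinib. Quantile normalization, normexp, the percentile over probes well above background, the median over probes and the RefSeq probe gave 0 raised under gefitinib against 0 h. Normexp gave 1 higher under both than gefitinib, and the percentile 2 lower under both than luteolin. With the median over probes 2 were lower under both than luteolin, 2 higher under luteolin than gefitinib and 1 departure was negative, while FANCC reversed to a departure of 1.17. No filter left 1 negative departure, and the slide block gave 1 raised under gefitinib (FANCC).

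With no minimum fold, against DMSO 1 was raised under luteolin, 10 lowered and 3 raised under gefitinib, and 11 lowered and 2 raised under both. Against 0 h 1 was raised under luteolin, 14 lowered and 3 raised under gefitinib, and 13 lowered and 2 raised under both. Between labels 5 were higher under luteolin than gefitinib, 18 higher and 2 lower under both than luteolin, and 8 higher and 10 lower under both than gefitinib. The methods' t-test against 0 h gave 2 lowered under gefitinib and 2 under both unadjusted, and 0 under every label after Benjamini-Hochberg, also for those raised under gefitinib.

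With the treatments of the file names, lowered against DMSO were 4 under luteolin and 17 under gefitinib, and against 0 h 8 and 18, with 0 raised under gefitinib and 1 under both. Then 11 were higher and 1 lower under luteolin than gefitinib, 3 higher and 3 lower under both than luteolin, and 15 higher and 1 lower under both than gefitinib. Reversed values against DMSO were XRCC2 0.84 and RAD50 -1.96 under luteolin, and RAD51C -1.51, RAD54L -2.71, FANCG -1.21, PARP1 -1.18 and UNG -2.22 under gefitinib. Between both and luteolin they were BRCA2 -0.61, RAD54B -0.87, XRCC2 -1.07, BLM -0.56, EXO1 -0.62, MSH6 -1.71, FANCB -0.17, ATR -1.01 and RAD50 1.89. Departures that reversed were RAD52 -0.72, MSH6 -1.06, FANCC 1.05, ATR -0.76, CHEK2 0.92 and RAD50 1.45.

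Over all genes, normexp gave 783 lowered and 901 raised under luteolin (1196 and 1408 otherwise), 1342 lowered under gefitinib (2789) and 746 under both (1504). Raised genes under gefitinib were 2018 with quantile normalization and 2002 with the percentile (3048). With the replicate block, 17, 5 and 4 genes were lowered against DMSO under luteolin, gefitinib and both, as without it, and positive departures were 16 in place of 15. Same-numbered arrays deviated together by over 0.1 in 6 of 10 pairs (correlations of -0.098 to 0.29). At 24 h the replicate number nearly follows the slide, so a pairing by number cannot be told apart from the slide. The main fit used no pairing.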
